A study of Homo sapiens with 12 samples.

Results

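The genes described here are those that were lower in HK2 cells given TNF-α alone (TN) than in untreated cells (Ctrl). HK2 cells are an immortalized human line that derives from the epithelium of the proximal tubule. A gene was taken as a member if its mean level in Ctrl was at least 5 CPM (counts per 1000000 counts of the library), if its mean in TN was at most 1/1.5 of that in Ctrl, and if the higher of the 2 TN libraries lay below the lower of the 2 Ctrl libraries. This rule took 177 of the 11379 rows with at least 5 CPM in Ctrl (1.56%), out of 58278 rows listed in all. Of the 177, 176 were distinct genes, since PLCXD1 was listed a second time with the same values for its copy in the pseudoautosomal region. The mirrored rule, for genes higher in TN, took 111 rows (0.975%). The members were thus chosen by their CPM in the Ctrl and TN libraries. The difference between these groups is therefore given as a description, with no test. The tests concern the libraries of the short-chain fatty acid (SCFA) groups, which the rule did not use. Some tests set them against the average of Ctrl and TN, which the rule did use, and those tests are not independent of the choice.

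The study had 6 groups of 2 libraries each. Ctrl cells were untreated, and TN cells received TNF-α at 5 ng/mL for 3 h. PRTN and BUTN cells received 15 mM propionate or 3 mM butyrate for 24 h with TNF-α given afterwards, and TNPR and TNBU cells received the same TNF-α first and then propionate or butyrate for 24 h. All cells grew in medium that contained hydrocortisone. HK2 cells given an SCFA without TNF-α, and cells kept for the later 24 h after TNF-α without an SCFA, were not analysed here, so the effect of an SCFA and that of the time since TNF-α cannot be told apart in TNPR and TNBU. In every SCFA group, PRTN and BUTN included, an effect of the SCFA alone cannot be told apart from a changed response to TNF-α. The libraries are biological duplicates of 1 cell line, and since nothing says that they came from separate cultures, the p-values measure only the spread between these libraries.

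TNF-α is an inflammatory cytokine that signals through its receptors to the IKK complex, which frees NF-κB to enter the nucleus and to activate genes of inflammation and survival. Propionate and butyrate are products of bacterial fermentation of fibre, act on G protein-coupled receptors and inhibit histone deacetylases, and are known to change the levels of many genes in both directions.

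The expected counts summed to 27269986 to 33851130 per library. TNF-α-induced NF-κB response genes served as a check of the labels, and 13 of 15 were called higher in TN than in Ctrl, with a median log2 fold change of 1.05. Of 12 markers of proximal tubule and kidney epithelium, 6 reached 1 CPM in every library, with PAX8, GGT1 and CDH16 among them, while PAX2, HNF4A, LRP2, AQP1, SLC34A1 and ANPEP were under 1 CPM in Ctrl. Keratin and other general epithelial markers were present, with 5 of 6, all but CDH1, at 1 CPM or more in every library and with summed levels of 1240.5 to 1257 CPM in Ctrl, 1120.2 to 1161 CPM in TN and 1878 to 2467 CPM in the SCFA libraries. Replicates of the members differed by a median of 0.105 and 0.137 on the log2 scale in Ctrl and TN, 0.0987 and 0.104 with the SCFA added first (PRTN and BUTN), and 0.210 and 0.189 with the SCFA added later (TNPR and TNBU), which were the more variable libraries. In such bulk RNA, fewer cells of a type and less RNA per cell cannot be told apart.

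Most of the members were modestly lowered genes of low abundance. Their mean Ctrl level ran from 5.04 to 1057 CPM with a median of 11.2 CPM, against a median of 37.0 CPM over the other genes with at least 5 CPM in Ctrl, and the median member stood in TN at 61.5% of its Ctrl level. FGFR3, LYPD1 and SLC22A18 lay just inside the limit on the ratio of Ctrl to TN, at 1.5007, 1.5007 and 1.5038, and SESN2, GRB7 and RBM47 just outside it, at 1.4981, 1.4968 and 1.4965. The lowest Ctrl means among the members were those of CCDC96 (5.04 CPM), CORO6 (5.15 CPM) and PROC (5.24 CPM), while CACNA1H (4.97 CPM), LINC01106 (4.93 CPM) and BRINP1 (4.91 CPM) fell short. Only 1 row, RP11-574F21.3, met the limits on level and ratio and had overlapping libraries. When each Ctrl or TN library was left out of the choice in turn, the rule took 195 to 251 rows.

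Among the protein-coding members, PPFIBP2, which encodes a scaffold protein of the liprin family, had the lowest ratio of TN to Ctrl, with 8.05 and 7.51 CPM in Ctrl and 1.86 and 2.39 CPM in TN. TMEM37, a gene for a calcium channel subunit-like membrane protein, followed with 23.7 and 21.1 CPM in Ctrl and 5.78 and 8.06 CPM in TN. SAMD11 (13.1 and 12.2 CPM in Ctrl and 4.6 and 4.74 CPM in TN) and SGK2, a kinase related to the serum- and glucocorticoid-regulated kinase (7.1 and 6.17 CPM in Ctrl and 2.69 and 2.56 CPM in TN), also had low ratios, and between them stood KBTBD11-OT1, which the rule for named genes leaves out. Of the members with an established name, these were followed by FAT4, ZNF467, UNC5CL, BMP4, NPY1R, GPR162, EPHA4 and CORO6, whose Ctrl means were 2.17 to 2.53 times their TN means. The most abundant members were CDH6, IVNS1ABP, CITED2, PTPN13, FAM84B and HIP1R, all of which were lowered by 1.51 to 1.64 times and thus stood near the limit of the rule. By the fit over all genes, 94 of the 177 members were called lower in TN than in Ctrl and 0 higher, which repeats the choice and was read no further. In that contrast 0.534% and 0.764% of all 24342 tested genes were called lower and higher, and 0% and 1.23% of the other genes with at least 5 CPM in Ctrl.

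Compared with the other genes of at least 5 CPM in Ctrl, the members held more noncoding genes. Of the 174 with an annotation, 148 were protein-coding (85.1% against 95.04% of the other genes) and 18 were long noncoding RNA genes (10.3% against 2.71%). Genes of a single exon made up 9.20% of the members and 3.17% of the others, the median gene span was 23800 against 33316 bases, and the median length of the joined exons was 4942 against 5518 bases. Chromosome 12 held 20 members, more than any other. The other genes were not counted by chromosome, so this is not read as a concentration. These are descriptions, and the low level of the members moved with them, since 72.7% of the members and 30.2% of the other genes had less than 20 CPM in Ctrl.

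The question put to the SCFA libraries was where the members went when propionate or butyrate was added before or after TNF-α. Each SCFA group was compared with the average of the log2 levels of Ctrl and TN, a midpoint that the difference between those groups, which chose the members, does not move. The rule also set a lowest Ctrl level and demanded libraries without overlap. The midpoint does not remove what these demands add to the level and the spread, so the p-values are not independent of the choice. A gene was called if it differed by more than 1.5-fold at an adjusted p under 0.05 (limma-voom, Benjamini-Hochberg over 24342 genes). A member that returned to its Ctrl level or stayed at its TN level lies off that midpoint by part of the gap that the rule demands. Most such members are not called, but those with the widest gaps can be. Not all of the members returned to their Ctrl level. By plain CPM, 41 of them (23.2%) lay above all Ctrl and TN libraries in each of the 4 SCFA groups and 39 (22%) below. Among the other genes with at least 5 CPM in Ctrl the shares were 32.3% and 33.3%. In no SCFA group did 50 members (28.2%) lie above or below all Ctrl and TN libraries, against 9.84% of the other genes. The gap between Ctrl and TN that the rule demands leaves a member less room outside these libraries. Neither the lower shares outside nor the higher share of members outside in no group is therefore read as a result.

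In PRTN, 44 members were called higher and 55 lower than the midpoint. Of all tested genes 25.3% and 17% were called higher and lower there, and 15% and 24.9% of the other genes with at least 5 CPM in Ctrl. In BUTN, 44 members were higher and 52 lower (all tested genes 24.6% and 15.1%, other genes of that level 12.6% and 22.5%). In TNPR, 42 members were higher and 55 lower (26.8% and 17.1%, and 15.2% and 26.5%). In TNBU, 40 members were higher and 56 lower (26.5% and 16.8%, and 13.9% and 26.1%). As shares, 22.6% to 24.9% of the members were called higher and 29.4% to 31.6% lower. Both shares were above those of the other genes of at least 5 CPM. Against all tested genes the share called lower was above the background in each group, while the share called higher was near it, slightly above in BUTN and slightly below in the other groups. The median log2 difference of the members from the midpoint was -0.06 and -0.19 in PRTN and TNPR and -0.01 and -0.11 in BUTN and TNBU, near that of the other genes (-0.13 to -0.17). In contrast, the median size of the difference regardless of sign was 0.70 to 0.81 in the members and 0.42 to 0.48 in the others. The median log2 difference of TN from Ctrl was -0.65 in the members, by the rule, and 0.01 in the others. A member at its Ctrl or TN level therefore lies off the midpoint already, which adds to the size and to the calls of the members. The 4 contrasts share the Ctrl and TN libraries, and their agreement is therefore not independent.

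**Figure D1:**
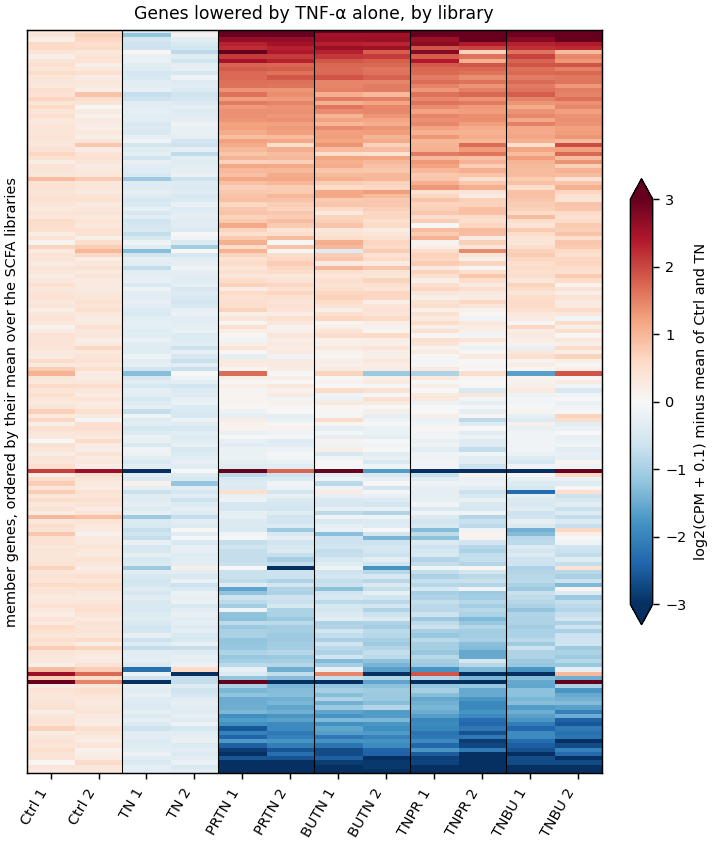
Each row is 1 of the 176 distinct members and each column 1 of the 12 libraries, and the colour gives log2(CPM + 0.1) minus the mean of the 4 Ctrl and TN libraries, limited to 3 in either direction. Ctrl is slightly above and TN slightly below that mean because the rule chose the rows so, while in the SCFA libraries the rows at the top were higher and those at the bottom lower than in Ctrl and TN.

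Part of the excess over the other genes moved with the level of expression. Among genes of 5 to 20 CPM in Ctrl, 25% to 26.6% of the 128 members of that range were called higher, against 20.5% to 23.7% of 3379 others, and 28.1% to 29.7% were called lower, against 20.9% to 23.5%. Among genes of 20 CPM or more, 16.3% to 22.4% of 49 members were called higher, against 9.13% to 11.6% of 7823 others, and 32.7% to 36.7% lower, against 23.3% to 27.7%. The members' shares were above those of the others in both ranges and in both directions. Among the low genes, which hold most members, the shares called higher were near those of the others in PRTN, TNPR and TNBU. In the upper range the higher calls were 8 to 11 members per group. The gap between Ctrl and TN that the rule demands adds to the calls of the members alone. No test of these shares was made, as genes are not independent replicates.

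**Figure D2:**
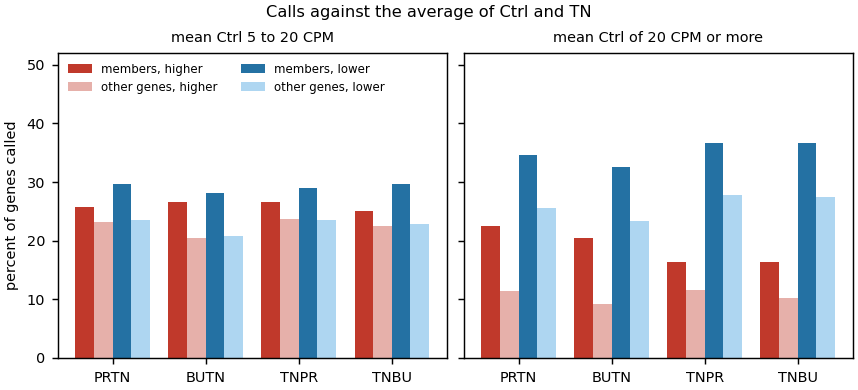
Bars give the percent of genes called higher (red) or lower (blue) than the average of Ctrl and TN in each SCFA group, for the members (dark) and the other genes (light), at 2 ranges of the mean Ctrl level. In the higher range, 16.3% to 22.4% of the members and 9.13% to 11.6% of the other genes were called higher.

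The counts depended on the scaling, since the TMM factors of Ctrl and TN (0.913 to 0.957) were lower than those of the SCFA libraries (1.02 to 1.06). Scaling by library size alone raised the median of all genes by 0.126 to 0.168 on the log2 scale in these contrasts. It gave 52 members higher and 48 lower in PRTN, 51 and 52 in TNPR, 55 and 43 in BUTN and 52 and 47 in TNBU. By plain CPM, both PRTN libraries lay above all 4 Ctrl and TN libraries in 57 members and below all 4 in 50 (40.1% and 40.5% of the other genes). The counts were 57 and 48 in BUTN (37.6% and 40.6%), 51 and 52 in TNPR (39.2% and 39.4%), and 55 and 45 in TNBU (37.8% and 37.6%). Both libraries lay between the groups, above both TN and below both Ctrl libraries, in 22, 30, 23 and 18 members (12.4%, 16.9%, 13% and 10.2%) of PRTN, BUTN, TNPR and TNBU. That position needs the gap that the rule demands, and no share of other genes is set beside it. With TMM-scaled CPM, the members above and below were 52 and 60 in PRTN (33.1% and 48.5% of the other genes), 48 and 57 in TNPR (31.6% and 48.1%), 49 and 58 in BUTN (30.3% and 49.5%) and 44 and 56 in TNBU (28.6% and 48.4%). The members' shares were 24.9% to 29.4% above and 31.6% to 33.9% below, less than those of the other genes. The wider gap between Ctrl and TN in the members, which the rule demands, leaves less room above and below it than in other genes.

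The starts of 6 members are shown because they stand for both directions in which members moved, with BMP4, FGFR2, CITED2 and FOS called higher and IVNS1ABP and PTPN13 called lower in every SCFA group. Each line gives 150 bases before the RefSeq start on GRCh38.p14, written 5′ to 3′ on the strand of the gene. The windows lie at chr14:53955051-53955200 on the minus strand (BMP4), chr10:121598445-121598594 on the minus strand (FGFR2), chr6:139374649-139374798 on the minus strand (CITED2), chr14:75278678-75278827 on the plus strand (FOS), chr1:185317244-185317393 on the minus strand (IVNS1ABP) and chr4:86594165-86594314 on the plus strand (PTPN13). Capitals mark matches, on either strand, to a GC box (GGGCGG), a CRE core (TGACG), an AP-1 site (TGANTCA), an E-box (CACGTG) or a TATA box (TATAAA), and none of these motifs contains another.
BMP4: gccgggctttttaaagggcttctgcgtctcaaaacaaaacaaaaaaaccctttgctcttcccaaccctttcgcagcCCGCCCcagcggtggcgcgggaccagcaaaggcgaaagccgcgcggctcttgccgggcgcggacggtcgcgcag
FGFR2: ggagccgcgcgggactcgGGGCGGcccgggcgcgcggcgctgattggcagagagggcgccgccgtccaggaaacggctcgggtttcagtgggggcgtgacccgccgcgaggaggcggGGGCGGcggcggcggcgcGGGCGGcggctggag
CITED2: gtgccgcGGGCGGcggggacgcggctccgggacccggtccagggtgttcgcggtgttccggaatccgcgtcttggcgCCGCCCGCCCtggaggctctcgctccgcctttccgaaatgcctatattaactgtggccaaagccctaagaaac
FOS: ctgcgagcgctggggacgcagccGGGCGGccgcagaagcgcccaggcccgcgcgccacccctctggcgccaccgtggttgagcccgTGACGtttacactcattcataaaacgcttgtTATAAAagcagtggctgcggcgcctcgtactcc
IVNS1ABP: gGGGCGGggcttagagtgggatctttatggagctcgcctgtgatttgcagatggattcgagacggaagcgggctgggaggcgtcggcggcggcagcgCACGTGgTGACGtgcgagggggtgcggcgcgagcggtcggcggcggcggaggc
PTPN13: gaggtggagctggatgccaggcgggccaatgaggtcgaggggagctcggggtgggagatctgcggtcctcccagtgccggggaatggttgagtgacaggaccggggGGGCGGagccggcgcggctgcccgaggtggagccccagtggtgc
A GC box was found in each of the 6 windows and in 36.8% of 35116 RefSeq windows of the same length. The FOS window also held a CRE core (15.4% of all windows) and a TATA box (6.71%), and that of IVNS1ABP a CRE core and an E-box (4.57%), while none held an AP-1 site (4.17%). Letters matching a motif are a description and do not show that a factor binds. A window was found for 109 of the 176 distinct members (61.9%), under the 80% needed, and a comparison of motifs or GC content over the whole set is therefore void.

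Secreted ligands and their modulators are described first. Genes without a position in the rule for named genes, namely PGF, KCP, THRA, THRB, PIK3R1, PIK3R3, SLITRK4, SLITRK5, PCDH7, MAF, SIM1, NR2F2, TNS2, PRODH, GYG2, PLA2G6, EHD3, RASAL1, C14orf105, FLJ16779, MIR6723 and RP5-940J5.9, were chosen after their values were seen, as were the groups by role. Only 85 of the 177 members were given 1 of 8 roles. Over all members, 22.6% to 24.9% were called higher and 29.4% to 31.6% lower, and no role was tested against these shares. Of 8 ligands, secreted and matrix proteins among the members, 4 were called higher and 2 lower in each of the 4 SCFA groups. BMP4 (chr14:53949736-53958761, GENCODE 44 on GRCh38), a ligand of the bone morphogenetic protein family, measured 19.9 and 19.3 CPM in Ctrl and 8.47 and 8.85 CPM in TN. BMP4 was at 60.9 and 64.8 CPM in PRTN and 48.1 and 53.9 CPM in TNPR, and at 78.5 and 76.6 CPM in BUTN and 60.4 and 61.8 CPM in TNBU. Every SCFA library held more BMP4 than the Ctrl libraries, and the log2 difference from the midpoint was 2.14 ± 0.07 and 1.82 ± 0.07 in PRTN and TNPR and 2.45 ± 0.07 and 2.06 ± 0.07 in BUTN and TNBU (± SE, largest adjusted p 5.53e-10). CRISPLD2 (chr16:84819985-84920768), which encodes a secreted protein with a cysteine-rich domain, had the largest called rise in PRTN, BUTN and TNBU, from 9.42 and 10.1 CPM in Ctrl and 5.74 and 6.03 CPM in TN to 63.5 to 84.2 CPM in the SCFA groups. It had log2 differences of 3.02 to 3.34 (largest adjusted p 1.59e-10). PGF, the placental growth factor, was at 6.44 and 6.59 CPM in Ctrl and 4.61 and 3.41 CPM in TN and at 10.1 to 12.1 CPM in the SCFA libraries, which did not overlap with either group (log2 difference 0.86 to 1.09, largest adjusted p 1.17e-05). KCP, a secreted modulator of BMP signalling, went the other way, with 18.7 and 17.6 CPM in Ctrl and 11.8 and 12.3 CPM in TN and 5.09 to 9.66 CPM in the SCFA groups (log2 difference -1.32 to -0.83, largest adjusted p 0.00015).

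BMP4 and ID1 were the members among 28 tested targets and regulators of BMP and TGF-β signalling, of which 12 were higher and 5 lower in PRTN, 13 and 6 in TNPR, 12 and 4 in BUTN and 12 and 5 in TNBU. Over all tested genes, 24.6% to 26.8% were called higher and 15.1% to 17.1% lower. No list was tested against these shares. ID1, which encodes an inhibitor of helix-loop-helix factors and is a known target of BMP signalling, measured 49.8 and 46.7 CPM in Ctrl and 26.9 and 31.5 CPM in TN. ID1 was at 22.8 and 27.6 CPM in PRTN and 26 and 19.3 CPM in TNPR, and at 22.6 and 26.5 CPM in BUTN and 25.2 and 24 CPM in TNBU. All SCFA libraries but 1 lay below the lower TN library in CPM, and ID1 was called lower in each group, by log2 differences of -0.89 to -0.71 (largest adjusted p 0.000225), although not in PRTN with library size alone (-0.58). The ligand and this target thus stood on opposite sides of the midpoint. The median log2 difference of the 28 genes was 0.33 and 0.25 in PRTN and TNPR and 0.43 and 0.39 in BUTN and TNBU, against 0.07 to 0.11 over all tested genes.

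Among 8 cell surface receptors, 2 were called higher and 3 lower in each SCFA group. FGFR2 (chr10:121478332-121598458), a receptor for fibroblast growth factors, measured 5.49 and 7.41 CPM in Ctrl and 3.34 and 3.8 CPM in TN. FGFR2 was at 30.1 and 30.3 CPM in PRTN and 29.5 and 39 CPM in TNPR, and at 28.2 and 29.3 CPM in BUTN and 32.4 and 40.5 CPM in TNBU. It was low in Ctrl and TN, and its means in the SCFA groups were 445% to 565% of that in Ctrl (log2 difference 2.46 to 2.76, largest adjusted p 5.25e-08). GPR162, an orphan G protein-coupled receptor, moved from 7.69 and 6.76 CPM in Ctrl and 3.1 and 3.41 CPM in TN to 11.7 to 15.4 CPM (log2 difference 1.15 to 1.42, largest adjusted p 4.72e-07). NPY1R, a receptor of neuropeptide Y, was lower, with 6.73 and 6.64 CPM in Ctrl and 3.1 and 2.88 CPM in TN and 1.72 to 3.38 CPM in the SCFA groups. FZD2, a Frizzled receptor of WNT ligands, was also lower, with 30.3 and 31.5 CPM in Ctrl and 16.7 and 20.1 CPM in TN and 13.1 to 17.9 CPM. NPY1R was called in each of the 4 contrasts (-1.34 to -0.61, largest adjusted p 0.00155) and so was FZD2 (-0.89 to -0.67, largest adjusted p 6.67e-05). In PRTN and BUTN, NPY1R stood at 1.07 and 1.02 times its TN mean. Its calls there give the distance of TN from the midpoint and not a fall below TN. FZD2 stood at 0.888, 0.885, 0.774 and 0.912 times its TN mean in PRTN, BUTN, TNPR and TNBU. Part of each difference of FZD2 is thus that distance too. With library size alone the calls of NPY1R in PRTN and BUTN and those of FZD2 in PRTN, BUTN and TNBU were lost. EPHA4, a receptor of ephrins, was not called in any group and lay between Ctrl and TN in all SCFA libraries, at 5.93 to 7.94 CPM against 9.45 and 9.15 CPM in Ctrl and 4.32 and 4.24 CPM in TN.

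FZD2 was the member among 28 tested genes of the WNT pathway, 13 of which were higher in each SCFA group and 3 or 4 lower (24.6% to 26.8% and 15.1% to 17.1% of all tested genes). In the Notch pathway, with 19 tested genes, the member was NRARP, a feedback inhibitor of Notch signalling. NRARP measured 5.53 and 5.42 CPM in Ctrl and 3.1 and 2.88 CPM in TN. NRARP was at 7.37 and 8.19 CPM in PRTN and 6.33 and 4.79 CPM in TNPR, and at 9.01 and 7.98 CPM in BUTN and 7.55 and 5.61 CPM in TNBU. It was called higher in PRTN (log2 difference 0.81, adjusted p 0.000384) and BUTN (0.94, 0.000112). It was not called in TNPR (0.30, 0.121) or TNBU (0.51, 0.0137, a fold under 1.5), and the difference between the times of addition was not called for it either (TNPR against PRTN, adjusted p 0.27, and TNBU against BUTN, 0.249).

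**Figure D3:**
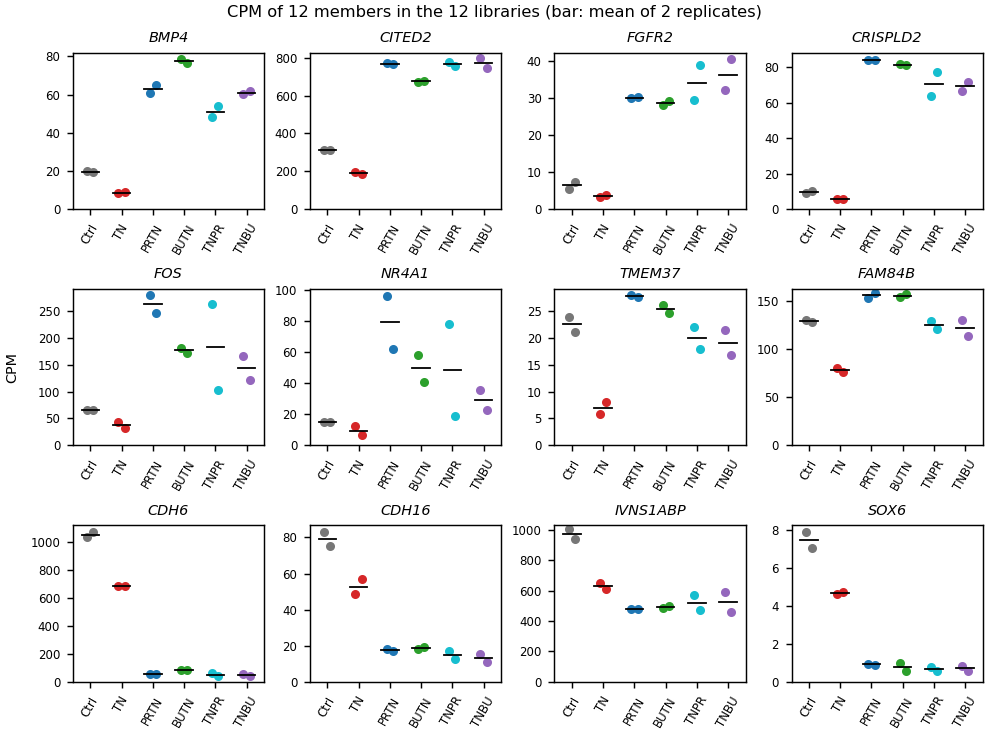
CPM of 12 members in the 12 libraries, with a panel for each gene, points for libraries, bars for the mean of 2 replicates and vertical axes that start at 0. BMP4, CITED2, FGFR2 and CRISPLD2 lay above Ctrl in all SCFA libraries, CDH6, CDH16, IVNS1ABP and SOX6 below TN, and the replicates of FOS and NR4A1 stood far apart in TNPR.

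Adhesion molecules held the largest fall. CDH6 (chr5:31193686-31329146), or K-cadherin, a cadherin of the proximal tubule, was the most abundant member and measured 1039.6 and 1074 CPM in Ctrl and 688 and 689.6 CPM in TN. CDH6 was at 54.9 and 55.3 CPM in PRTN and 63.8 and 39.4 CPM in TNPR, and at 86.1 and 82.7 CPM in BUTN and 54.1 and 40.0 CPM in TNBU. The means of the SCFA groups were 4.45% to 7.99% of the Ctrl mean, far below TN at 65.2%, and the log2 difference from the midpoint was -4.08 ± 0.14 and -4.23 ± 0.14 in PRTN and TNPR and -3.46 ± 0.13 and -4.37 ± 0.15 in BUTN and TNBU (largest adjusted p 8.35e-10). CDH16 (chr16:66908122-66918917), the kidney-specific cadherin, measured 83.3 and 75.5 CPM in Ctrl and 48.4 and 56.8 CPM in TN. CDH16 was at 18.3 and 17.1 CPM in PRTN and 17 and 12.6 CPM in TNPR, and at 18.3 and 19 CPM in BUTN and 15.1 and 11 CPM in TNBU. It was called lower in each group (-2.49 to -1.91, largest adjusted p 5.88e-08). The summed level of the 12 kidney epithelial markers, CDH16 among them, moved with these cadherins. It was 809 to 812 CPM in Ctrl, 707 to 750 CPM in TN and 310 to 347 CPM in the SCFA libraries, and its part in the result was not tested. Over the same libraries the summed level of the 6 general epithelial markers stood higher instead, as given above, with KRT19 at 4.13 to 4.91 CPM in Ctrl and TN and 85.1 to 124 CPM in the SCFA libraries and CDH1 at 0.0688 to 0.281 CPM and 8.85 to 14.7 CPM. CDH16 was the member among 27 tested genes of kidney epithelial identity and transport, of which 14 or 15 were called higher and 8 or 9 lower in each SCFA group, with median log2 differences of 0.74 to 0.99. The shares of all tested genes were 24.6% to 26.8% higher and 15.1% to 17.1% lower. In TN against Ctrl 1 of the 27 was called higher and 0 lower. The 5 fibroblast markers summed to 45.3 to 52.95 CPM in Ctrl and TN and to 209 to 253 CPM in the SCFA libraries, mostly COL1A1. LUM and COL1A2 were also higher. PDGFRA was at 0 to 0.0327 CPM in Ctrl and TN and higher, though under 1 CPM, in the SCFA libraries (0.441 to 0.8 CPM). DCN was not higher, at 0.652 to 1.03 CPM in Ctrl and TN and 0.456 to 0.622 CPM in the SCFA libraries. The part of these markers was not tested either.

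Higher in the same libraries were the protocadherins FAT4 and PCDH7. FAT4 measured 6.12 and 8.3 CPM in Ctrl and 2.75 and 2.95 CPM in TN. FAT4 was at 14.2 and 12 CPM in PRTN and 14.2 and 15.2 CPM in TNPR, and at 9.71 and 8.89 CPM in BUTN and 16.1 and 12.8 CPM in TNBU. It was called higher in each group (log2 difference 0.91 to 1.55, largest adjusted p 0.000245), with all SCFA libraries above both Ctrl libraries. PCDH7 moved from 88 and 89 CPM in Ctrl and 42.8 and 51.4 CPM in TN to 119 to 154 CPM (log2 difference 0.79 to 1.06, largest adjusted p 5.43e-06). Of the 8 adhesion proteins, 4 were higher in PRTN, BUTN and TNPR and 3 in TNBU, and 2 were lower throughout.

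Transcriptional regulators were the largest of the role groups as assigned, with 27 of the 85 members given a role. Of these, 4, 5, 4 and 3 were called higher and 8 lower in PRTN, BUTN, TNPR and TNBU. The share called lower was near that of all members (29.4% to 31.6%). CITED2 (chr6:139371807-139374648), which encodes a cofactor that binds CBP and p300, was the most abundant of them and measured 313 and 310.5 CPM in Ctrl and 197 and 189 CPM in TN. CITED2 was at 769 and 768 CPM in PRTN and 778 and 755 CPM in TNPR, and at 673 and 677 CPM in BUTN and 796 and 747 CPM in TNBU. Its SCFA libraries lay between 673 and 796 CPM, above both Ctrl libraries, with log2 differences of 1.52 ± 0.04 and 1.5 ± 0.04 in PRTN and TNPR and 1.34 ± 0.04 and 1.49 ± 0.04 in BUTN and TNBU (largest adjusted p 2.52e-10). FOS (chr14:75278826-75282230), an immediate early subunit of AP-1, measured 65 and 65.3 CPM in Ctrl and 42.7 and 32.7 CPM in TN. FOS was at 278 and 246 CPM in PRTN and 262 and 104 CPM in TNPR, and at 181 and 172 CPM in BUTN and 165 and 122 CPM in TNBU. It was called higher in each group, but the errors were wide and the TNPR replicates differed by 2.53 times (log2 difference 2.28 ± 0.27 and 1.6 ± 0.28 in PRTN and TNPR and 1.71 ± 0.28 and 1.35 ± 0.28 in BUTN and TNBU, largest adjusted p 0.00109). NR4A1 (chr12:52022832-52059507), an orphan nuclear receptor that is also an immediate early gene, measured 15.3 and 14.9 CPM in Ctrl and 12.3 and 6.72 CPM in TN. NR4A1 was at 96.3 and 62.1 CPM in PRTN and 78.1 and 18.9 CPM in TNPR, and at 58.5 and 40.7 CPM in BUTN and 36 and 22.7 CPM in TNBU. Its call in TNPR (1.59 ± 0.49, adjusted p 0.0134) rested on the first TNPR library, without which the log2 difference was 0.51 and not called. It was also lost without the second TN library (1.34). It was called in PRTN (2.6 ± 0.47, adjusted p 0.000334) and BUTN (1.93 ± 0.48, 0.00378), and not in TNBU (1.12 ± 0.51, 0.0771). FOS was the member among 27 tested Krüppel-like and immediate early factors, of which 9, 6, 7 and 6 were higher and 4, 6, 6 and 6 lower in PRTN, BUTN, TNPR and TNBU. Of all tested genes 24.6% to 26.8% were higher and 15.1% to 17.1% lower, so no response of this list is read from the counts.

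Among the regulators called lower were SOX6, IRX3, MAF, ZNF618, ZNF219 and HOXB5. SOX6 (chr11:15966449-16739591), an SRY-related factor, went from 7.88 and 7.03 CPM in Ctrl and 4.6 and 4.72 CPM in TN to 0.561 to 0.99 CPM, with log2 differences of -3.27 to -2.80 (largest adjusted p 4.42e-07). IRX3, an Iroquois homeobox factor of the nephron, measured 13.4 and 14.8 CPM in Ctrl and 7.94 and 8.86 CPM in TN. IRX3 was at 6.25 and 6.15 CPM in PRTN and 6.27 and 4.92 CPM in TNPR, and at 5.55 and 5.76 CPM in BUTN and 5.71 and 5.55 CPM in TNBU. Its SCFA libraries lay below both TN libraries (log2 difference -1.12 to -0.94, largest adjusted p 8.89e-06). MAF, a leucine zipper factor, moved from 45.2 and 43.9 CPM in Ctrl and 28.9 and 29.8 CPM in TN to 14.4 to 25.5 CPM (log2 difference -1.40 to -0.90, largest adjusted p 9.94e-06). ZNF618 moved from 61.4 and 69 CPM in Ctrl and 42.1 and 42.2 CPM in TN to 8.41 to 16.7 CPM (log2 difference -2.56 to -1.80, largest adjusted p 2.47e-08). ZNF219 moved from 26.7 and 27.4 CPM in Ctrl and 15.5 and 18.9 CPM in TN to 11.8 to 13.5 CPM (log2 difference -0.95 to -0.87, largest adjusted p 4.43e-06). These were 2 of the 5 zinc finger genes with a ZNF symbol among the members. HOXB5 was low throughout, with 5.23 and 5.9 CPM in Ctrl and 3.31 and 3.8 CPM in TN and 1.88 to 3.28 CPM in the SCFA groups (log2 difference -1.24 to -0.67, largest adjusted p 0.00172, not called in BUTN with library size alone). Of 37 tested HOX genes, 9 were higher in each SCFA group and 19 to 21 lower. The shares over all tested genes were 24.6% to 26.8% higher, near that of the HOX genes, and 15.1% to 17.1% lower. In contrast, of 35 tested developmental transcription factors, a list that holds the members IRX3, IRX5 and TFAP2A, 16 to 18 were higher and 5 to 7 lower, with median log2 differences of 0.50 to 0.70.

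Other regulators lay nearer to the midpoint. TFAP2A, an AP-2 factor, stayed near its TN level, with 32.5 and 29.9 CPM in Ctrl and 19.9 and 19.8 CPM in TN and 19.2 to 23.4 CPM in the SCFA libraries. IRX5 did likewise, with 5.87 and 5.69 CPM in Ctrl and 3.29 and 3.81 CPM in TN and 3.13 to 4.76 CPM. SIM1, a helix-loop-helix factor, stood near its Ctrl level instead, with 82.4 and 86.1 CPM in Ctrl and 51.2 and 47.2 CPM in TN and 77.6 to 95.6 CPM. NR2F2, an orphan nuclear receptor, was at 39.6 and 44 CPM in Ctrl and 27.8 and 26.5 CPM in TN and at 42.5 to 59.8 CPM, with its lowest SCFA values near Ctrl. None of these 4 was called in any of the 4 contrasts. Their log2 differences were -0.51 to -0.28 for TFAP2A, -0.39 to -0.36 for IRX5, 0.25 to 0.37 for SIM1 and 0.21 to 0.51 for NR2F2. ZNF467, ZNF503 and ZNF862 were not called either. ZNF467 lay at 3.26 to 4.13 CPM in the SCFA libraries, between 5.82 and 4.87 CPM in Ctrl and 2.27 and 2.1 CPM in TN. ZNF503 lay at 13.4 to 16.9 CPM, between 17.3 and 17.4 CPM in Ctrl and 10.9 and 11 CPM in TN. ZNF862 lay at 4.48 to 5.58 CPM, with 1 library above 5.43 and 5.49 CPM in Ctrl and 3.37 and 3.68 CPM in TN.

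TSC22D3, or GILZ, is a known target of glucocorticoids, and hydrocortisone was in the medium of all groups. It measured 49.2 and 43.7 CPM in Ctrl and 29.5 and 29.9 CPM in TN. TSC22D3 was at 47.6 and 52.3 CPM in PRTN and 45.4 and 33.8 CPM in TNPR, and at 58.2 and 55.1 CPM in BUTN and 44.1 and 35.2 CPM in TNBU. It was not called in any SCFA group, with log2 differences of 0.30 ± 0.11 and -0.06 ± 0.12 in PRTN and TNPR and 0.48 ± 0.11 and -0.08 ± 0.12 in BUTN and TNBU. It was the member among 14 tested glucocorticoid-responsive genes, of which 6, 5, 5 and 4 were higher and 2 lower in PRTN, BUTN, TNPR and TNBU (24.6% to 26.8% and 15.1% to 17.1% of all tested genes). In TN, 1 of the 14, TSC22D3 itself, was called lower and 0 higher.

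Members of intracellular signalling went both ways. Among 8 members that encode PI3K subunits, kinases or phosphatases, 1 was higher in each group and 5, 5, 5 and 6 were lower. PTPN13 (chr4:86594315-86815171), a large tyrosine phosphatase, measured 190.1 and 220.3 CPM in Ctrl and 141 and 129.9 CPM in TN. PTPN13 was at 65.2 and 61.1 CPM in PRTN and 59.7 and 48.6 CPM in TNPR, and at 55.7 and 52.4 CPM in BUTN and 60.3 and 39.9 CPM in TNBU. It was called lower in each group (-1.93 to -1.53, largest adjusted p 4.28e-07). TNS2, a tensin of focal adhesions, moved from 89.1 and 85.6 CPM in Ctrl and 54 and 55.2 CPM in TN to 20.4 to 37.2 CPM (-1.79 to -1.13, largest adjusted p 5.73e-08). SGK2 was among the genes with the lowest ratio of TN to Ctrl and went lower still, to 1.44 to 2.49 CPM (-1.61 to -0.96, largest adjusted p 0.000231). Of 6 regulators of small GTPases, 3 were higher in each group and 2 or 3 lower. Among the higher ones was RASAL1, a RAS GTPase-activating protein (13.8 and 12.2 CPM in Ctrl and 8.02 and 8 CPM in TN, and 16.9 to 23.6 CPM in the SCFA groups, log2 difference 0.68 to 1.02, largest adjusted p 0.000945).

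IVNS1ABP (chr1:185296388-185317273), a kelch-repeat protein named for its binding to an influenza virus protein, was the second most abundant member, with 1005 and 939 CPM in Ctrl and 651 and 611 CPM in TN. IVNS1ABP was at 478 and 482 CPM in PRTN and 569.9 and 472 CPM in TNPR, and at 488 and 499.7 CPM in BUTN and 593 and 459.5 CPM in TNBU. All SCFA libraries lay below both TN libraries (log2 difference -0.83 to -0.74, largest adjusted p 1.6e-05). SAMD11 also stayed below TN in most libraries, at 3.06 to 4.91 CPM, and was called in each group (-1.31 to -0.99, largest adjusted p 3.78e-05). Its means were 0.772, 0.905, 0.733 and 0.914 times the TN mean in PRTN, BUTN, TNPR and TNBU. Part of each difference of SAMD11 is thus the distance of TN from the midpoint. C14orf105, called CCDC198 in GENCODE 44, fell from 61.7 and 59.9 CPM in Ctrl and 39.2 and 33.9 CPM in TN to 3.79 to 6.2 CPM (-3.75 to -3.09, largest adjusted p 6.85e-10), next to CDH6 in TNBU. FAM84B stood near or above its Ctrl level, with 129.5 and 128 CPM in Ctrl and 80.3 and 76.4 CPM in TN and 114 to 158 CPM in the SCFA groups, and was not called (0.10 to 0.50). TMEM37 and PPFIBP2, which had the lowest ratios of TN to Ctrl, parted. TMEM37 measured 27.9 and 27.6 CPM in PRTN and 22 and 17.9 CPM in TNPR, and 26 and 24.6 CPM in BUTN and 21.4 and 16.7 CPM in TNBU, near its Ctrl values. It was called higher in PRTN (1.04, adjusted p 1.38e-05) and BUTN (0.90, 5.7e-05). Its means there were 1.24 and 1.13 times the Ctrl mean, so part of each difference is the distance of Ctrl from the midpoint. PPFIBP2 stayed nearer to its TN values, at 2.16 to 3.8 CPM. It was called lower in TNPR (-0.81, adjusted p 0.00134) and TNBU (-0.85, 0.00125), although its means there were 1.21 and 1.19 times the TN mean. The call in TNPR was lost without the second TNPR library (-0.58). UNC5CL lay between the groups, at 6.44 to 8.9 CPM, and was not called (-0.29 to -0.01).

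Of 10 metabolic enzymes, 5 were called higher in each SCFA group and 3 or 4 lower. PDXP, a phosphatase of pyridoxal phosphate, rose from 4.65 and 5.99 CPM in Ctrl and 1.52 and 3.94 CPM in TN to 21 to 42.5 CPM (log2 difference 2.42 to 3.24, largest adjusted p 1.2e-06). GYG2, a glycogenin that primes glycogen synthesis, was at 21.9 and 21.2 CPM in Ctrl and 13 and 14 CPM in TN and at 29.8 to 36.4 CPM in the SCFA groups (0.70 to 0.90, largest adjusted p 1.16e-06). PLA2G6, a phospholipase A2, was at 8.3 and 6.96 CPM in Ctrl and 5.06 and 5.04 CPM in TN and at 11.6 to 15.7 CPM (0.80 to 1.10, largest adjusted p 3.83e-05). Lower were CPS1, the mitochondrial carbamoyl phosphate synthetase of the urea cycle, and PRODH, the first enzyme of proline breakdown. CPS1 measured 31.2 and 27.3 CPM in Ctrl and 17 and 20.02 CPM in TN. CPS1 was at 7.05 and 6.72 CPM in PRTN and 6.08 and 3.13 CPM in TNPR, and at 6.71 and 6.68 CPM in BUTN and 4.62 and 2.53 CPM in TNBU. The log2 difference of CPS1 was -2.94 to -1.88, with a largest adjusted p of 2.57e-06. PRODH measured 34.3 and 37.3 CPM in Ctrl and 15.7 and 17.9 CPM in TN. PRODH was at 10.8 and 11.4 CPM in PRTN and 13.8 and 12.4 CPM in TNPR, and at 12.4 and 12.3 CPM in BUTN and 14 and 15.9 CPM in TNBU. The log2 difference of PRODH was -1.27 to -0.88, with a largest adjusted p of 2.24e-06. Both enzymes act in mitochondria, and all SCFA libraries lay below both TN libraries in CPS1 and all but 1 of them below the lower TN library in PRODH.

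Solute carriers moved in both directions. SLC27A3, of the family of fatty acid transport proteins, was higher in BUTN, TNPR and TNBU, with 9.09 and 10.2 CPM in Ctrl and 6.72 and 6.06 CPM in TN and 12.6 to 20.02 CPM in the SCFA groups (log2 difference 0.58 to 1.04, and in PRTN adjusted p 0.00089 at a fold under 1.5). SLC2A11, a glucose transporter family member, was lower in each group, from 16.7 and 14.9 CPM in Ctrl and 10.6 and 8.95 CPM in TN to 7.18 to 11.2 CPM (-0.79 to -0.63, largest adjusted p 0.00237), but not in TNPR or TNBU with library size alone. The means of SLC2A11 were 0.801, 0.821, 0.892 and 0.938 times its TN mean in PRTN, BUTN, TNPR and TNBU. Part of each of its differences is thus the distance of TN from the midpoint. SLC22A18 and SLC25A30 were not called and lay at 8.39 to 11.3 CPM and 21.5 to 24.3 CPM, close to or between Ctrl and TN. These 4 are members among 271 tested solute carrier genes, of which 101, 102, 109 and 109 were higher and 61, 54, 56 and 56 lower in PRTN, BUTN, TNPR and TNBU (24.6% to 26.8% and 15.1% to 17.1% of all tested genes).

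Of 10 members for the cytoskeleton and membrane traffic, 5 or 6 were called higher and 2 lower. HIP1R (chr12:122834453-122862961), which links clathrin coats to actin, measured 115 and 111 CPM in Ctrl and 73.6 and 75.4 CPM in TN. HIP1R was at 230.4 and 238 CPM in PRTN and 237 and 243 CPM in TNPR, and at 212 and 207 CPM in BUTN and 207 and 239 CPM in TNBU. The log2 difference of HIP1R was 1.06 to 1.24, with a largest adjusted p of 1.05e-08. CORO6, a coronin that binds actin, rose from 5.27 and 5.04 CPM in Ctrl and 2.24 and 2.52 CPM in TN to 17.5 to 23 CPM (2.2 to 2.42, largest adjusted p 2.42e-08). EHD3, an ATPase of endocytic recycling, rose from 8.83 and 7.07 CPM in Ctrl and 4.82 and 5.08 CPM in TN to 20.7 to 23.4 CPM (1.61 to 1.73, largest adjusted p 1.2e-08). EFHB, an EF-hand protein, fell from 7.65 and 7.79 CPM in Ctrl and 4.58 and 4.46 CPM in TN to 0.798 to 1.54 CPM (-2.84 to -2.22, largest adjusted p 3.19e-07).

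In 4 pairs of related members, chosen with their values in view for this pattern, 1 gene was called higher in the SCFA groups and the other was not called. Other related members were called alike, such as CDH6 and CDH16 (lower in each group). FGFR2 was called higher in each, whereas FGFR3, the related receptor, measured 75 and 74.8 CPM in Ctrl and 46.6 and 53.2 CPM in TN. FGFR3 was at 64.9 and 66.4 CPM in PRTN and 53.8 and 49.8 CPM in TNPR, and at 74.7 and 73.1 CPM in BUTN and 57.4 and 52.8 CPM in TNBU. It was not called (log2 difference -0.02 ± 0.07 and -0.38 ± 0.07 in PRTN and TNPR and 0.15 ± 0.07 and -0.32 ± 0.07 in BUTN and TNBU). THRA, the thyroid hormone receptor alpha, was at 18.3 and 17.7 CPM in Ctrl and 10.3 and 12.1 CPM in TN and at 29.2 to 34.1 CPM in the SCFA groups (0.90 to 1.12, largest adjusted p 3.57e-07). THRB, the receptor beta, lay at 26.2 and 29.1 CPM in Ctrl and 19.7 and 16.8 CPM in TN and at 16 to 21.6 CPM, with no call (-0.53 to -0.26). PIK3R3, a regulatory subunit of PI3K, rose from 61.9 and 60.3 CPM in Ctrl and 39.3 and 38.2 CPM in TN to 119 to 149.8 CPM (1.26 to 1.48, largest adjusted p 2.55e-08). PIK3R1, another regulatory subunit, had similar Ctrl and TN levels (63.4 and 61.5 CPM in Ctrl and 39.9 and 36.8 CPM in TN) and remained at 35.1 to 73.1 CPM with no call (-0.38 to 0.39). SLITRK4 rose from 8.7 and 10.3 CPM in Ctrl and 6.54 and 6 CPM in TN to 21.1 to 33.7 CPM (1.57 to 1.99, largest adjusted p 1.53e-06). SLITRK5, a related transmembrane protein, lay at 32.1 and 31.6 CPM in Ctrl and 22.7 and 19.5 CPM in TN and at 21 to 25.7 CPM, with no call (-0.42 to -0.15). In each of these 4 pairs 1 gene exceeded Ctrl in all 8 SCFA libraries, and the difference between the genes of a pair was not tested.

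**Figure D4:**
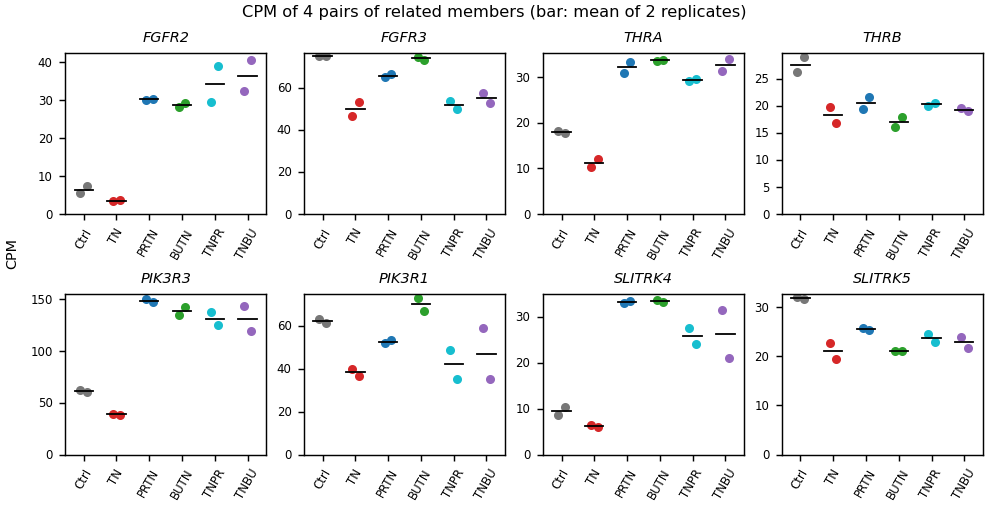
CPM of 4 pairs of related members in the 12 libraries, with points for libraries and bars for the mean of 2 replicates, on axes that start at 0. FGFR2, THRA, PIK3R3 and SLITRK4 lay above their Ctrl values in all SCFA libraries, while THRB and SLITRK5 lay below theirs.

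Noncoding members were mostly low or uncertain. LINC01089 fell from 13.4 and 10.1 CPM in Ctrl and 7.35 and 7.49 CPM in TN to 1.21 to 2.71 CPM (log2 difference -2.93 to -2.10, largest adjusted p 1.29e-06). FLJ16779, a long noncoding RNA gene, fell from 12 and 17.2 CPM in Ctrl and 8.37 and 9.93 CPM in TN to 0.747 to 1.69 CPM (-3.82 to -2.92, largest adjusted p 9.11e-07). HOXA-AS2, an antisense RNA of the HOXA cluster, fell from 18.6 and 18.2 CPM in Ctrl and 11.6 and 12 CPM in TN to 2.72 to 3.81 CPM (-2.37 to -2.22, largest adjusted p 2.08e-08). TMPO-AS1 fell from 9.17 and 9.72 CPM in Ctrl and 6.45 and 5.82 CPM in TN to 2.54 to 3.89 CPM (-1.43 to -1.30, largest adjusted p 1.16e-05). MIR503HG, a host transcript of microRNAs, measured 7.92 and 6.86 CPM in Ctrl and 4.23 and 2.98 CPM in TN. MIR503HG was at 9.15 and 9.77 CPM in PRTN and 15.3 and 15.8 CPM in TNPR, and at 7.38 and 6.79 CPM in BUTN and 9.97 and 17.1 CPM in TNBU. It was higher in PRTN, TNPR and TNBU but not called in BUTN (0.76 ± 0.20 and 1.45 ± 0.18 in PRTN and TNPR and 0.34 ± 0.21 and 1.19 ± 0.19 in BUTN and TNBU). ZNF436-AS1 was lower in PRTN and BUTN (-1.42 ± 0.31 and -0.47 ± 0.26 in PRTN and TNPR and -1.13 ± 0.30 and -0.68 ± 0.28 in BUTN and TNBU), and TNRC6C-AS1 was lower in TNPR alone among the 4 calls (-0.32 ± 0.14 and -0.69 ± 0.15 in PRTN and TNPR and -0.04 ± 0.14 and -0.37 ± 0.15 in BUTN and TNBU), where it was lost with library size alone. As the strand setting of the counting is not given in the sources used here, reads of an antisense RNA and of its partner gene may not have been separated. In 9 members the 2 replicates of some group differed by more than 3 times, and NR4A1 was the only protein-coding gene among them. MIR6723 measured 10.6 and 15.3 CPM in Ctrl and 0 and 2.47 CPM in TN. MIR6723 was at 99.5 and 8.43 CPM in PRTN and 0 and 0 CPM in TNPR, and at 25.5 and 0.703 CPM in BUTN and 0 and 26.8 CPM in TNBU. RP5-940J5.9 measured 14.7 and 4.25 CPM in Ctrl and 0 and 0.865 CPM in TN. RP5-940J5.9 was at 21.8 and 0 CPM in PRTN and 0 and 0 CPM in TNPR, and at 0 and 0.425 CPM in BUTN and 0.442 and 108 CPM in TNBU. The ratio of Ctrl to TN was 10.5 and 21.9 in these rows, whose values jumped between replicates of the SCFA groups. Such rows can share reads with near-identical sequences, among which RSEM divides them, and no direction was read from them.

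Propionate and butyrate were compared directly at each time of addition, although their doses differed by design, and so were the times of addition for each SCFA. In these 4 contrasts few members were called. The median size of the log2 difference was 0.19 for PRTN against BUTN, 0.15 for TNPR against TNBU, 0.17 for TNPR against PRTN and 0.17 for TNBU against BUTN, near the median standard error of 0.14 to 0.15. Over the other genes with at least 5 CPM in Ctrl it was smaller, at 0.08 to 0.10. In PRTN against BUTN, 0 members were higher and 1 lower (0.0411% and 0.127% of all tested genes, 0.0446% and 0.134% of those other genes), with 38 at an unadjusted p under 0.05. In TNBU against BUTN, 0 were higher and 1 lower (0.0945% and 0.173%, 0.0982% and 0.205%), with 47 at an unadjusted p under 0.05, 1 called by edgeR and 5 by DESeq2. In TNPR against TNBU, 0 members were called (0% and 0.00822%, 0% and 0.00893%), while 19 had an unadjusted p under 0.05, edgeR called 0 and DESeq2 2. In TNPR against PRTN, 0 were called as well (0.0534% and 0.107%, 0.0714% and 0.0982%), with 36 at an unadjusted p under 0.05, 0 by edgeR and 2 by DESeq2.

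The member that differed between PRTN and BUTN was TSPOAP1 (chr17:58301228-58328795), which encodes a scaffold protein named for the TSPO protein of the mitochondrial membrane. It measured 10.6 and 9.54 CPM in Ctrl and 6.16 and 6.39 CPM in TN. TSPOAP1 was at 3.29 and 3.61 CPM in PRTN and 3.67 and 3.13 CPM in TNPR, and at 6.23 and 5.82 CPM in BUTN and 4.11 and 5.4 CPM in TNBU. It was lower with propionate by -0.80 on the log2 scale (95% confidence interval -1.14 to -0.47, adjusted p 0.0448). Its call was lost in 8 of 12 fits that left out a library, although the log2 difference stayed between -0.87 and -0.74. In TNPR against TNBU it differed by -0.45 (-0.82 to -0.08, adjusted p 0.494). The member that differed between TNBU and BUTN was CDH6, lower when butyrate followed TNF-α by -0.90 (-1.28 to -0.52, adjusted p 0.0398). That call was lost in 9 of 12 such fits, with log2 differences of -1.14 to -0.68, and the count of lower members rose to 10 without the first TNBU library. BMP4 was also lower in TNBU than in BUTN, by -0.39 (-0.53 to -0.24, adjusted p 0.0213), which is under the fold limit for a call.

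For other genes with large changes, the intervals show how closely the SCFAs could be compared. CITED2 differed between PRTN and BUTN by 0.18 (0.08 to 0.29, adjusted p 0.109). CRISPLD2 differed by 0.05 (-0.12 to 0.22, 0.838) and FGFR2 by 0.07 (-0.22 to 0.36, 0.869). For FOS the interval was wide, at 0.56 (-0.07 to 1.20, 0.421). For PDXP it left out 0 without passing the adjusted threshold, at 0.74 (0.37 to 1.11, 0.0749). The difference between the effect of timing for propionate and that for butyrate was called for 0 members, with 6 at an unadjusted p under 0.05. A call that was not made does not show that propionate and butyrate, or the times of addition, act alike.

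**Figure D5:**
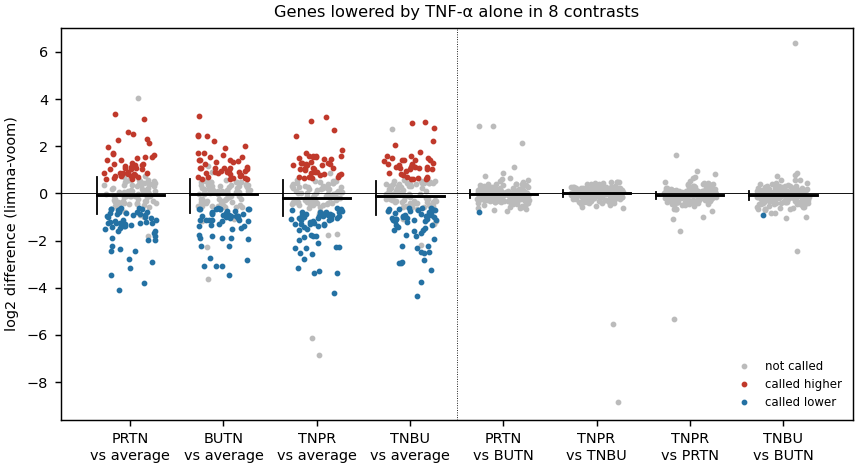
Log2 differences from limma-voom of the 176 distinct members in 8 contrasts, with a point for each gene, black lines for the median and the quartiles, and red or blue for genes called higher or lower. The 4 contrasts with the average of Ctrl and TN spread widely to both sides, while of those between SCFA groups only PRTN against BUTN and TNBU against BUTN hold a called gene, 1 each.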

How the data were processed

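Polyadenylated RNA of HK2 cells was sequenced in 12 libraries, 2 for each of the 6 groups. Alignment by the authors was to GRCh38, with STAR (2.6.1a in the submitters' processing notes, which also name FastQC 0.11.5) and the authors deposited expected counts per gene from RSEM on GENCODE release 26, neither scaled nor filtered, of which 19.3% are not whole numbers. Groups came from the label of each library, since a general treatment text in the labels names other compounds (thapsigargin and JQ1).

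The members and the lists were chosen with earlier results of these data known. CPM is the expected count over the library sum, times 1000000, and a value of 3 counts corresponds to 0.0886 to 0.11 CPM, which covers counting error only. Following the study's methods, limma 3.58.1 (voom weights, R 4.3.3) was fitted to unrounded counts of all 12 libraries, with TMM factors from edgeR 4.0.16, a mean for each group, and the 24342 genes whose geometric mean count, with 1 added and then subtracted, was at least 1. All 177 members passed this filter. Calls needed a fold over 1.5 and a Benjamini-Hochberg adjusted p under 0.05 over all tested genes, within each contrast. The SE and the 95% confidence intervals are those of the fit. The fits were also run on simulated counts in which genes were changed in PRTN alone. That run used neither the fold limit of 1.5 nor the rule, so it does not test the calls as reported or the choice of members. Alternatives were the quasi-likelihood test of edgeR and DESeq2 1.42.0 (both on rounded counts), other scaling, filters, libraries and fold limits, the replicate block, other forms of the rule and leaving out each library. Positions come from GENCODE 44. Same-numbered libraries of different groups did not deviate together (15 pairs, correlations of -0.046 to 0.109, 1 of them over 0.1), and were not treated as pairs. No columns of other samples were present.

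The text names the 12 protein-coding members with the lowest ratio of TN to Ctrl, the 6 most abundant, members of the lists, the 5 largest called rises and falls per contrast with the average of Ctrl and TN, the 3 largest in the others, and the rows next to each limit of the rule, without genes that lack an established name, read-through genes and rows that share reads. For other members the report says that they were picked with their values in view.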

Additional observations from a re-analysis of the deposited data

How the results depend on the processing

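Against the average of Ctrl and TN, the counts of called members stayed within 1.5 times under edgeR, DESeq2, other scaling, other filters, fits of the compared libraries and the replicate block. A fold over 2 gave 28 higher and 36 lower in PRTN, 27 and 29 in BUTN, and 36 lower in TNBU. Of the 28 members with Ctrl at least 2 times TN, 7 were higher in each SCFA group, and 5, 6, 5 and 7 were lower in PRTN, TNPR, BUTN and TNBU. Leaving out 1 library gave 43 to 48 higher and 52 to 60 lower in PRTN, 40 to 45 and 53 to 59 in TNPR, 39 to 46 and 52 to 56 in BUTN, and 38 to 42 and 56 to 59 in TNBU.

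The calls between SCFA groups were few and unstable. Members lower in PRTN than in BUTN (1) were 0 when every gene with a count in at least 1 library was tested, with the replicate block, with a fold over 2 and among the 28, and 2 with only the libraries compared, where 2 were also higher. Those lower in TNBU than in BUTN (1) were 4 by DESeq2 (1 higher), and 0 with that wider set of genes, only the libraries compared, a fold over 2, the 28 or members chosen on TMM-scaled CPM, by which 1 was higher in PRTN than in BUTN. DESeq2 gave 2 lower in TNPR than in TNBU and 2 lower in TNPR than in PRTN. Without 1 library, 0 to 1 were higher and 0 to 2 lower in PRTN than in BUTN, 0 to 4 higher and 0 to 10 lower in TNBU than in BUTN (4 and 10 without the first TNBU library), 0 to 1 higher and 0 to 2 lower in TNPR than in PRTN, and 0 in TNPR against TNBU. With the replicate number as a block the call of TSPOAP1 was lost (log2 -0.80), and the other counts stayed within 1.5 times.

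The rule took 505 rows at a Ctrl mean of at least 1 CPM, 99 at 10 CPM, 28 at a ratio of 2, 134 on TMM-scaled CPM (130 shared with the 177), and 195 to 251 without 1 library. TMM scaling of the positions was chosen after seeing the data. No value of a named gene reversed. Causes were not tested, apart from those that a setting's own construction shows, such as fewer libraries or a higher fold.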
